A study of Homo sapiens with 14 samples.

Results

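The arrays described here measured the effect of silencing NUPR1 in starved MiaPaCa2 cells, a human line established from a pancreatic carcinoma. They were the arrays of cells kept in EBSS (Earle's balanced salt solution) within the Nupr1 set of the series, chosen by their labels: 3 with an siRNA against NUPR1 (siNupr1) and 3 with a scrambled control siRNA (siCtrl), 6 of 14 arrays in all. Each siRNA was sampled once at 3, 6 and 9 h of starvation, so the comparison was made within 3 pairs matched by time. The labels do not say whether these pairs came from separate cultures, and the p-values below rest only on how siNupr1 differences varied over the 3 times. The moderation by limma drew that spread mostly from all tested genes, with 25.0 prior beside 2 residual degrees of freedom. An SE or p-value below is therefore no measure of a gene's own spread over its 3 pairs. The pair at 0 h, called fed here because its titles name the growth medium DMEM, is shown as a value without a test, and its source field gives 0 h in EBSS. At 9 h, the title of the silenced array reads sip9 where the earlier ones read sip8, whereas its source field names siNupr1. It was used as siNupr1. The named calls lost without its pair are given with the results, as are many, though not all, of the list counts that change. The other 6 arrays of the series carried siCtrl, siRelA or siRelB in EBSS or mock at 9 h, and they enter only where the siRNAs are set side by side. All 14 arrays share the cell line and the transfection with INTERFERin. The series' design asks whether NUPR1 raises pro-survival genes in starved cells, and whether it works through RELB and not RELA.

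NUPR1 is a small, intrinsically disordered chromatin protein whose gene is induced by many stresses, nutrient shortage among them, and it acts as a transcriptional cofactor. NF-kB is a family of dimeric transcription factors. In the canonical branch, degradation of the inhibitor encoded by NFKBIA releases dimers that contain RELA, and in the alternative branch the kinases encoded by MAP3K14 and CHUK lead to processing of the NFKB2 product, which partners RELB. Targets of both branches include the genes of their own subunits and inhibitors, chemokines and survival factors. EBSS is a buffered salt solution, which the labels describe as free of glucose, amino acids and growth factors. Withdrawal of these nutrients is known to activate ATF4, the transcription factor of the amino acid response, and autophagy.

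The siRNAs are shown because the comparison rests on which transcript each was designed against. The labels' protocol gives their RNA bases as follows, without a dTdT overhang at the end, and does not say which strand guides silencing, so no seed is marked. It lists a second NUPR1 siRNA, and the arrays' labels name only siNupr1. The sequences of siRelB and siRelA belong to the other arrays that are set beside these below.
siNupr1: ggaggacccaggacaggau
siNupr1#2: aggucgcaccaagagagaa
siRelB: ggauuugccgaauuaacaa
siRelA: gaucaauggcuacacagg

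Values are deposited log2 levels made with RMA, on which a difference of 1 is a 2-fold change, and differences are siNupr1 minus siCtrl. Array medians over all clusters ranged from 5.67 to 5.78 on the 8 arrays of the Nupr1 set. RMA includes quantile normalization, which draws arrays to a common scale, so these medians cannot show whether an array stood apart before it. KRT8, KRT18 and VIM, which this line is known to express, lay between 12.55 and 13.18 on the 6 EBSS arrays. Of 7 epithelial markers 3 passed the filter on dim genes, a level of 5.80: KRT19 (9.54 to 10.30), CLDN4 (7.14 to 7.57) and KRT7 (5.76 to 6.43). EPCAM, CDH1, CLDN7 and ELF3 did not pass, and EPCAM and CDH1 lay between 3.46 and 4.69. CDKN2A, deleted in this line, read 6.00 to 6.11, so a level near 6 can be read without a transcript of the gene. Of markers of other cell types, 1 of 5 acinar, 0 of 4 endocrine, 4 of 7 fibroblast, 2 of 6 leukocyte and 1 of 6 endothelial genes with a cluster passed that filter. The mean level of the leukocyte list was 5.24 to 5.36 with siCtrl and 5.45 to 5.60 with siNupr1. Its defining gene PTPRC (CD45) read 2.52 to 2.80 on all 6 arrays, and the higher list mean came mainly from CD68 (means 7.82 and 8.34) and LYZ (5.44 and 6.02). The ranges of the other lists overlapped between the siRNAs.

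NUPR1 itself fell with its siRNA at every time. Its level with siCtrl was 7.25 at 3 h, 7.49 at 6 h and 7.30 at 9 h, and with siNupr1 it was 6.33, 6.28 and 6.64. The 3 silenced arrays all lay below the 3 controls, and the 9 h array was the highest of the silenced ones. The mean difference was -0.93 ± 0.12 (SE, 3 pairs; limma adjusted p = 7.13e-06). Since a gene without a transcript can read near 6, the silenced readings set no measure of how much NUPR1 RNA remained, and no fold is given. In the fed pair, where both arrays were lower, siCtrl read 6.27 and siNupr1 5.59.

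**Figure D1:**
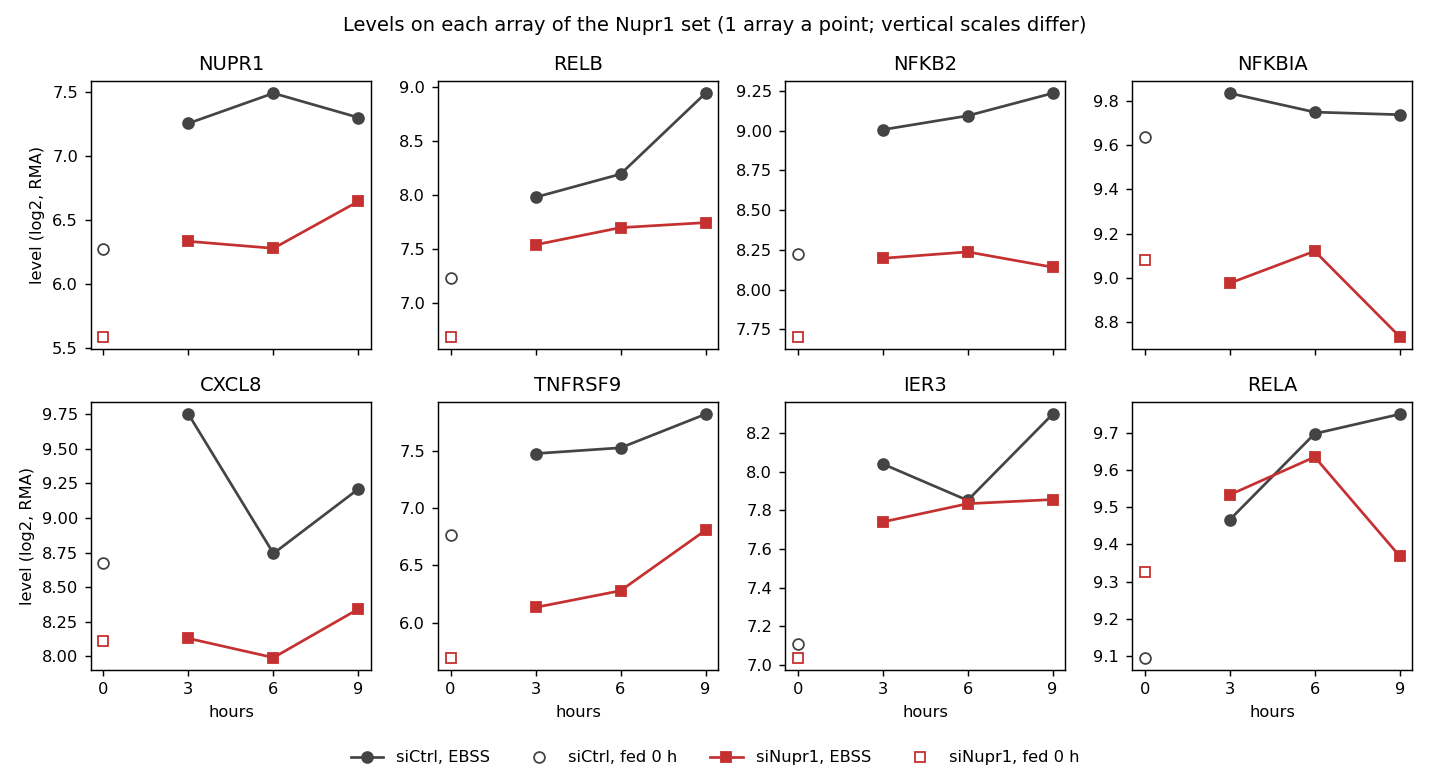
Levels (log2, vertical axes) of 8 genes against hours (horizontal axes) on the 8 arrays of the Nupr1 set, with filled points for EBSS, open points for the fed 0 h pair, grey for siCtrl and red for siNupr1. NUPR1, RELB, NFKB2, NFKBIA, CXCL8 and TNFRSF9 are lower with siNupr1 at 3, 6 and 9 h, whereas the lines of RELA cross and those of IER3 meet at 6 h.

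Across the transcriptome, 1302 of 11026 tested genes differed between siNupr1 and siCtrl at an adjusted p under 0.05 (limma with the time as a block), which is 11.8%. Of these, 615 (5.58%) were higher and 687 (6.23%) lower with siNupr1. Most differences were small: 80 of the higher and 60 of the lower genes passed 1.5-fold, and 6 and 2 passed 2-fold. The 3 pairs had the same sign in 1280 of the 1302. In 963 of them the 3 levels of one siRNA did not overlap the 3 of the other, against 19.8% of all tested genes. The median difference over all tested genes was -0.0014. Without the time as a block only 134 genes passed, 80 higher and 54 lower. Left out in turn, the 3 h, 6 h and 9 h pairs left 589, 373 and 1963 genes. Of 122 called genes named here, 61 kept their call whichever pair was left out, among them the 15 largest rises and the 15 largest falls. Without the 3 h pair 39 lost it, without the 6 h pair 53. Without the 9 h pair 8 lost it, namely NFKB1, AURKA, OPTN, CDC45, SESN2, ABCC2, DUSP5 and IDH3A. The counts of gene lists below are to be read against the 6.23% of all tested genes called lower and the 5.58% called higher.

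**Figure D2:**
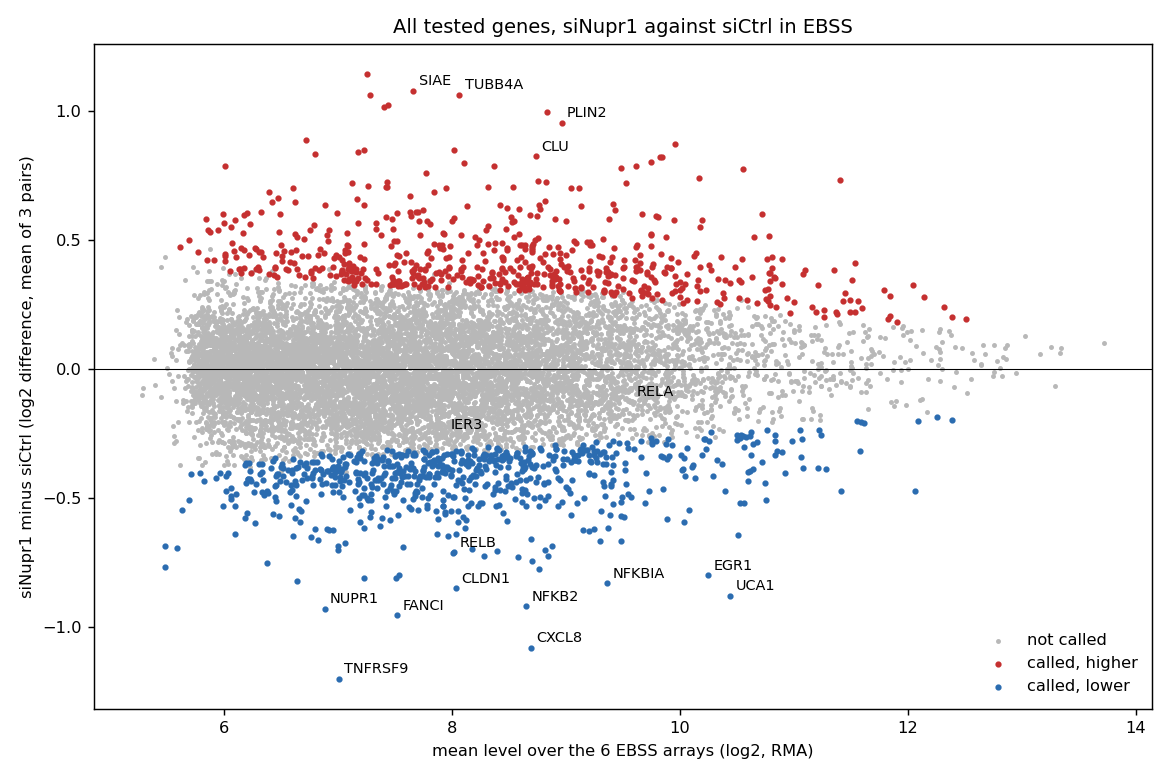
Difference siNupr1 minus siCtrl in EBSS (log2, vertical axis, mean of 3 pairs) against mean level (log2, horizontal axis) for 11026 tested genes, with the 615 called higher in red, the 687 called lower in blue and the rest in grey. TNFRSF9 and CXCL8 lie lowest, SIAE and TUBB4A are among the highest, and IER3 and RELA lie among the grey points.

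The pairs resembled each other to different degrees. Across genes, which are not independent replicates, the differences at 3 and 6 h correlated with Pearson r = 0.63, those at 3 and 9 h with 0.34 and those at 6 and 9 h with 0.38. The SD of the difference across genes was 0.28 at 3 h, 0.23 at 6 h and 0.27 at 9 h, and 0.32 in the fed pair. Genes at least 1.5-fold apart made up 3.87%, 1.9% and 3.53% of those tested at 3, 6 and 9 h, and 6.7% in the fed pair.

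Genes of NF-kB were among the largest falls. RELB, the partner of the NFKB2 product, read 7.98, 8.19 and 8.94 with siCtrl at 3, 6 and 9 h, and 7.54, 7.70 and 7.74 with siNupr1. The controls rose between 3 and 9 h while the silenced arrays changed little, and the groups did not overlap. The mean difference was -0.71 ± 0.12 (SE, 3 pairs; limma adjusted p = 0.000322), with -0.44 at 3 h, -0.50 at 6 h and -1.20 at 9 h. Without the time as a block its adjusted p was 0.106, and its difference without the 9 h pair was -0.47.

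NFKB2, which encodes the p100 precursor of p52, fell by a like amount at each time. With siCtrl it read 9.01, 9.09 and 9.24, and with siNupr1 8.20, 8.24 and 8.14. No silenced array reached a control, and the difference was -0.92 ± 0.10 (limma adjusted p = 1.04e-06). NFKB1, which encodes the p105 precursor of p50, fell by 0.31 ± 0.10 (limma adjusted p = 0.0480), a call lost in 9 of 16 other settings, among them each setting without 1 pair.

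The other subunits did not pass. RELA read 9.47, 9.70 and 9.75 with siCtrl and 9.53, 9.64 and 9.37 with siNupr1, so the groups overlapped and only the 9 h pair was clearly apart. Its difference was -0.13 ± 0.10 (95% interval -0.32 to 0.07; limma adjusted p = 0.470), and without the 9 h pair it was 0.0023. REL, the c-Rel subunit, differed by -0.22 (95% interval -0.46 to 0.02; limma adjusted p = 0.259). In all, 3 of 5 subunit genes were called lower and 0 higher, against 6.23% called lower among all genes tested. The median of the 5 was -0.31.

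Of the canonical NF-kB targets listed, 11 of 20 tested fell and 0 rose, with a median of -0.30 against -0.0014 over all tested genes. The 11 were CXCL8, NFKB2, NFKBIA, CXCL1, RELB, LIF, CD83, CFLAR, NFKBIE, NFKB1 and PLAU, of which LIF, CD83, NFKBIE and PLAU are named to complete the count, after their values were seen. Without the 3, 6 or 9 h pair, 9, 8 and 9 of the 20 were called lower. The members ranged from -1.08 to 0.19, and 17 of the 20 were below 0. Earlier results of these data were known when the list was written, so its direction is no independent evidence.

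CXCL8 encodes interleukin-8, a neutrophil chemokine. It read 9.75, 8.74 and 9.21 with siCtrl at 3, 6 and 9 h and 8.13, 7.99 and 8.34 with siNupr1. The control was highest at 3 h, where the pair lay furthest apart, and the groups did not overlap. The mean difference was -1.08 ± 0.12 (limma adjusted p = 1.59e-06), from -1.62 at 3 h to -0.75 at 6 h. CXCL1, another chemokine of that family, read 9.19, 9.03 and 9.38 with siCtrl and 8.22, 8.59 and 8.61 with siNupr1. It fell by 0.73 ± 0.11 (limma adjusted p = 5.93e-05), and its fed pair differed by only -0.12.

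NFKBIA encodes the inhibitor IkB-alpha. Its siCtrl levels were flat at 9.84, 9.75 and 9.74, and its siNupr1 levels were 8.98, 9.12 and 8.74. The difference was -0.83 ± 0.10 (limma adjusted p = 2.19e-06), and the fed pair read 9.64 and 9.08. LIF, a cytokine of the interleukin-6 family, fell by 0.68, CD83, a surface immunoglobulin protein, by 0.49 and NFKBIE, another NF-kB inhibitor, by 0.44. PLAU, the urokinase plasminogen activator, fell by 0.28 ± 0.08 (limma adjusted p = 0.0157). CFLAR, an inhibitor of caspase-8 activation at death receptors, fell by 0.47, with -0.46, -0.49 and -0.47 at 3, 6 and 9 h. It lost its call without the 6 h pair.

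IER3, an immediate early gene linked to survival, is the gene for which the protocol lists further siRNAs, none of them on these arrays. It read 8.04, 7.85 and 8.30 with siCtrl and 7.74, 7.84 and 7.86 with siNupr1. The 6 h values were almost equal and the groups overlapped. The difference of -0.25 ± 0.11 did not pass (95% interval -0.48 to -0.03 before adjustment; limma adjusted p = 0.134).

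The alternative branch showed 5 of 9 tested members lower and 0 higher, with a median of -0.58. Besides NFKB2 and RELB they were MAP3K14, BIRC2 and CHUK, the last named to complete the count. MAP3K14 encodes the kinase NIK, which starts the branch. It read 8.84, 8.70 and 8.70 with siCtrl and 8.07, 8.17 and 7.88 with siNupr1, and fell by 0.71 ± 0.10 (limma adjusted p = 5.93e-05). BIRC2 encodes cIAP1, a ubiquitin ligase that restrains NIK. It read 9.57, 9.20 and 9.61 with siCtrl and 8.78, 8.53 and 9.20 with siNupr1, so in each pair siNupr1 was lower, and it fell by 0.63 ± 0.10 (limma adjusted p = 0.000130). CHUK, the kinase IKK-alpha, fell by 0.58, most at 3 h (-0.90) and least at 9 h (-0.37).

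TNFRSF9, an inducible receptor of the TNF family (CD137), had the lowest difference of all called genes with the same sign in 3 pairs. Its levels were 7.47, 7.52 and 7.82 with siCtrl and 6.13, 6.28 and 6.81 with siNupr1. The groups lay well apart, and the difference was -1.20 ± 0.11 (limma adjusted p = 7.78e-08). Its siNupr1 readings at 3 and 6 h were near the level of about 6 that a gene without a transcript can read. No fold of its RNA follows from the difference. The fed pair differed by nearly as much, with 6.77 for siCtrl and 5.70 for siNupr1.

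Promoters of these targets were searched because 8 of the 11 had a row in the RefSeq promoter table (GRCh38.p14). The motif was the NF-kB consensus (G at its first 3 bases, any base at the next 2, then T, T, any base, C, C), looked for on both strands in the 250 bases before the annotated start. It was found in 3 of the 8: CXCL1, NFKB1 and NFKBIA. The 8 come from a list of known NF-kB targets, and listed targets that were not called were not counted. Their share therefore says nothing about siNupr1. Of 27305 promoters in the RefSeq set, 5.08% held it, and 6.12% of 8849 promoters of tested genes. Among genes called lower 6.32% of 585 held it, and among genes called higher 5.42% of 461, so the called genes as a whole were near the background. CXCL8, NFKB2, CD83, CFLAR and PLAU had no match, which says only that these letters are not in these windows. LIF, NFKBIE and RELB were the other 3 of the 11. The matching promoters are printed in the direction of the gene, with the motif in capitals, and its first base lay 79, 49 and 81 bases before the start. They are CXCL1 at chr4:73869143-73869392 on the plus strand, NFKB1 at chr4:102501109-102501358 on the plus strand and NFKBIA at chr14:35404750-35404999 on the minus strand, where the motif reads in reverse. A match is a description and no evidence of binding.
CXCL1: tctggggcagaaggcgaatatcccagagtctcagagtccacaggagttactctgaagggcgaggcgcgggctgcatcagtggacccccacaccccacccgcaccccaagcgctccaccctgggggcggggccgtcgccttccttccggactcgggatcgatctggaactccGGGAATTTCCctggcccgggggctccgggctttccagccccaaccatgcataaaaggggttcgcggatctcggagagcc
NFKB1: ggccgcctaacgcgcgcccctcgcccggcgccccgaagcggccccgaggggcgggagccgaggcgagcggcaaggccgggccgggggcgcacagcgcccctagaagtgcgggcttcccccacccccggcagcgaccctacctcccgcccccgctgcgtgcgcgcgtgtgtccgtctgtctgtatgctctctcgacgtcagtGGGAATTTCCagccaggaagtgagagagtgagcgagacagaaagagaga
NFKBIA: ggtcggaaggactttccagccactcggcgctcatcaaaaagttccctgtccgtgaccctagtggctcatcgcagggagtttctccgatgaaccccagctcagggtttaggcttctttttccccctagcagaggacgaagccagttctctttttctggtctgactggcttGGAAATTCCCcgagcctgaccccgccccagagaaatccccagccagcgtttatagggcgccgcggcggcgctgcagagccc

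Other large falls were of genes outside NF-kB. UCA1, a long non-coding RNA raised in several carcinomas, read 10.81, 10.71 and 11.11 with siCtrl and 9.88, 9.84 and 10.27 with siNupr1. The 3 differences were close to each other, from -0.83 to -0.93, and their mean was -0.88 ± 0.08 (limma adjusted p = 5.84e-08). CLDN1, a tight junction claudin, rose over the times in both groups, from 8.06 to 8.89 with siCtrl and from 7.21 to 8.11 with siNupr1. Its groups overlapped for that reason, while within pairs it fell by 0.85 ± 0.10 (limma adjusted p = 3.98e-06). Without the time as a block its adjusted p was 0.0899.

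FANCI, a Fanconi anaemia protein of DNA crosslink repair, read between 7.88 and 8.10 with siCtrl and 7.07, 7.09 and 6.95 with siNupr1. It fell by 0.95 ± 0.11 (limma adjusted p = 1.04e-06), and the groups were far apart relative to their spread. The remaining genes among the 15 largest falls ranged from -0.77 to -0.82. They were MTX3, a metaxin of mitochondria, PRXL2C, FLJ42627, EGR1, SECISBP2, which binds selenocysteine insertion elements, LYPLA1, an acyl-protein thioesterase, and MBOAT1, a lysophospholipid acyltransferase. PRXL2C fell most at 9 h (-1.31) and differed by -0.11 in the fed pair. MTX3 fell most at 3 h (-1.21). Its siNupr1 levels of 6.16 to 6.29 were near the level that a gene without a transcript can read, so no fold follows. MBOAT1 read 5.63 to 6.19 with siCtrl and 4.83 to 5.32 with siNupr1, near or below the filter level of 5.80, so no fold of its RNA follows from its difference.

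The largest rises were of genes with varied roles. SIAE, an esterase that removes acetyl groups from sialic acids, read 6.89, 7.22 and 7.25 with siCtrl and 8.16, 8.31 and 8.13 with siNupr1. All silenced arrays lay well above the controls, and it rose by 1.08 ± 0.11 (limma adjusted p = 2.83e-07). TUBB4A, a beta-tubulin, fell over the times in both groups, from 7.85 to 7.17 and from 9.05 to 8.09, and the silenced arrays stayed above the controls. It rose by 1.06 ± 0.10 with siNupr1 (limma adjusted p = 2.76e-07).

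PRSS23, a secreted serine protease, read 6.79, 6.65 and 6.81 with siCtrl and 7.74, 7.71 and 7.99 with siNupr1, a rise of 1.06 ± 0.11. PLIN2, which coats lipid droplets, rose over the times with either siRNA. It read 8.09, 8.54 and 8.81 with siCtrl and 9.22, 9.38 and 9.71 with siNupr1, a rise of 0.95 ± 0.10 (limma adjusted p = 3.98e-07). THBS3, a thrombospondin of the extracellular matrix, rose by 1.02, and MYH16, a sarcomeric myosin gene that is inactive in humans, by 1.02.

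The rest of the 15 largest rises ranged from 0.79 to 0.89. XDH, the xanthine dehydrogenase of purine breakdown, rose by 0.89, and EEF1A2, a translation elongation factor, by 0.87. L1CAM, a neural cell adhesion molecule, rose by 0.85, from 1.25 at 3 h to 0.51 at 9 h. HKDC1, a hexokinase-like protein, rose by 0.84, and its groups overlapped because the 9 h control read 7.44, above 2 of the silenced arrays. C1R, a complement protease, CLU, the secreted chaperone clusterin, and ANXA6, a membrane-binding annexin, rose by 0.83, 0.82 and 0.80. With siCtrl, XDH read 6.09 to 6.46, C1R 6.16 to 6.53, L1CAM 6.36 at 3 h and HKDC1 6.37 and 6.44 at 3 and 6 h. These readings are near the level that a gene without a transcript can read, so no fold of their RNA follows. LAMB3, a laminin chain, and ZDHHC16, a palmitoyltransferase, rose by 0.79 each. LAMB3 read 5.56 to 5.64 with siCtrl, below the filter level of 5.80, and 6.29 to 6.45 with siNupr1. At such levels its difference of 0.79 is a difference of readings near background, from which no fold of its RNA follows.

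**Figure D3:**
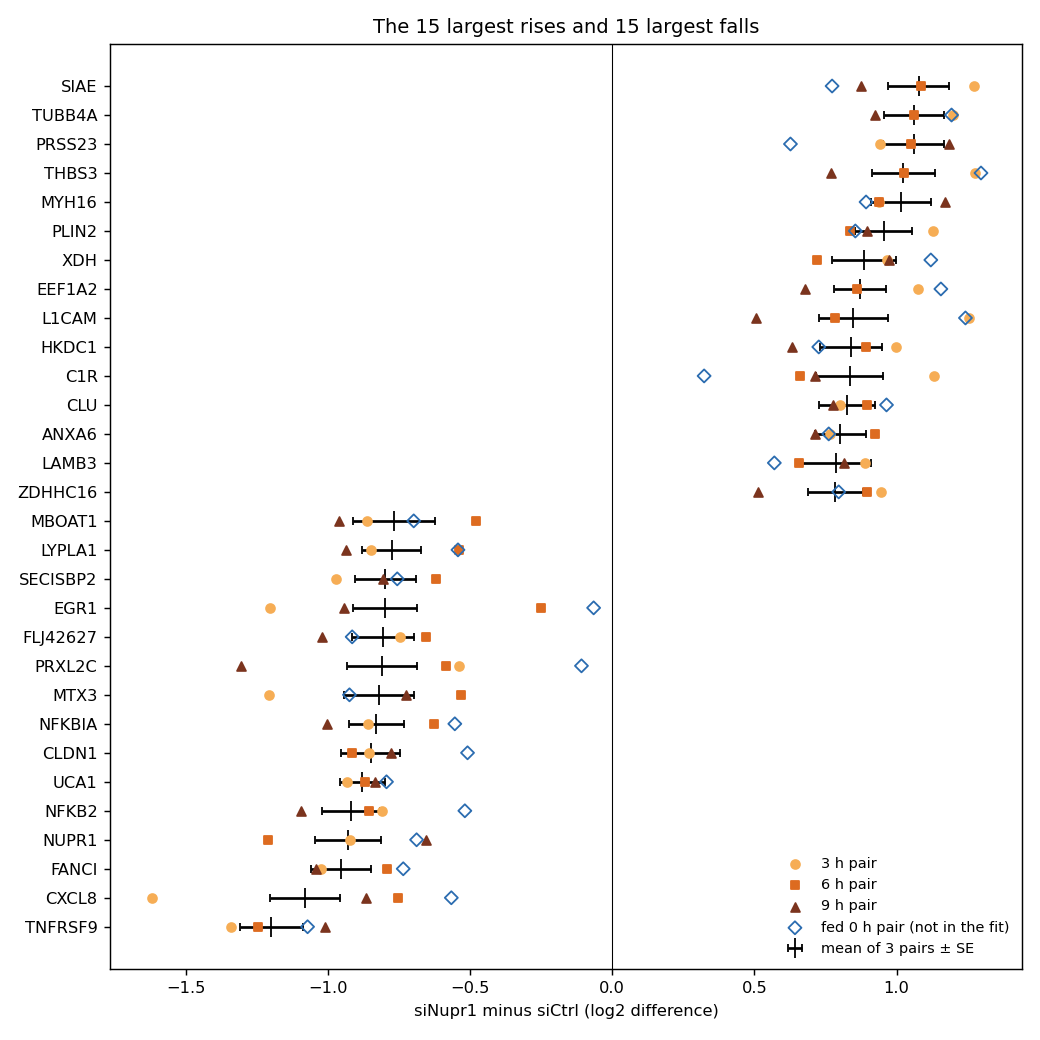
Differences siNupr1 minus siCtrl (log2, horizontal axis) of the 15 largest rises and 15 largest falls among called genes with 1 sign in the 3 pairs, with black bars for the mean ± SE of 3 pairs, filled symbols for the 3, 6 and 9 h pairs and open diamonds for the fed 0 h pair. The diamond lies on the same side of 0 as the bar for each gene, and it lies nearest to 0 for EGR1 (-0.07) and PRXL2C (-0.11).

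Immediate early genes, induced within minutes to hours of a stimulus, leaned lower: 9 of 26 tested fell and 1 rose, beside 6.23% and 5.58% of all tested genes, with a median of -0.16. EGR1, a zinc finger factor of this class, read 11.40, 10.13 and 10.42 with siCtrl and 10.19, 9.88 and 9.48 with siNupr1. The pairs differed widely, by -1.21 at 3 h, -0.25 at 6 h and -0.94 at 9 h, and the groups overlapped. Its mean difference was -0.80 ± 0.11 (limma adjusted p = 3.03e-05), and without the time as a block its adjusted p was 0.157. KLF6, another zinc finger factor, fell by 0.58, and the AP-1 subunit FOSL2 by 0.52. CCN1, a secreted matricellular protein, fell by 0.52, and its fed pair ran the other way with 0.40. In the fed pair the median of the 26 genes was 0.05, beside 0.0565 over all tested genes. There 8 of the 26 were below 0, against 23 in the starved mean. Without the 3, 6 or 9 h pair, 6, 5 and 9 were called lower.

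EGF receptors, their ligands and ERK feedback genes showed 6 of 14 lower and 1 higher, beside 6.23% and 5.58% of all tested genes, with a median of -0.29. The ligands HBEGF and EREG fell by 0.53 and 0.39, and SPRY4, a feedback inhibitor of the ERK pathway, by 0.44. HBEGF differed by -0.84 at 3 h, -0.18 at 6 h and -0.57 at 9 h, and by 0.09 in the fed pair. EREG rose over the times with either siRNA, from 10.60 to 11.03 with siCtrl and from 10.09 to 10.73 with siNupr1, so its groups overlapped. DUSP5, a nuclear ERK phosphatase, rose by 0.45, and its 3 h pair differed by only 0.07. Without the 3, 6 or 9 h pair, 5, 4 and 7 of the list were called lower.

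Targets of YAP and TEAD, the transcription factors of the Hippo pathway, had 4 of 14 lower and 0 higher, with a median of -0.13, and 2, 3 and 4 were called lower without the 3, 6 or 9 h pair. AMOTL2, which binds YAP, read 9.66, 8.98 and 8.87 with siCtrl and 8.71, 8.57 and 8.13 with siNupr1. It fell by 0.70 ± 0.11 (limma adjusted p = 7.58e-05), whereas its fed pair differed by -0.04. NT5E, the ectonucleotidase CD73, and CRIM1, a membrane protein that binds BMPs, fell by 0.39 and 0.28, beside CCN1.

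Genes of the ATF4 and amino acid response were more often lower than higher: 13 of 28 fell and 1 rose, beside 6.23% and 5.58% of all tested genes, with a median of -0.23. SLC6A9, a glycine transporter, fell by 0.51, CTH, the cystathionine gamma-lyase that makes cysteine, by 0.50, and PPP1R15A, which directs dephosphorylation of eIF2-alpha, by 0.45. PSPH, the phosphatase of serine synthesis, rose by 0.36 ± 0.09 (limma adjusted p = 0.00596). The count rested on all pairs: without the 3, 6 or 9 h pair, 7, 2 and 9 genes were called lower. PPP1R15A differed by 0.20 in the fed pair, opposite in sign to the starved pairs.

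Cytosolic aminoacyl-tRNA synthetases, many of them known ATF4 targets, did not lean: 2 of 19 rose, 0 fell, and the median was 5e-04. Without the 9 h pair 3 were called higher and 3 lower. The 2 were HARS1, for histidine, and VARS1, for valine. HARS1 read 9.46, 9.28 and 9.36 with siCtrl and 10.03, 9.97 and 9.90 with siNupr1, a rise of 0.60 ± 0.09 (limma adjusted p = 6.08e-05). ER chaperones and unfolded protein response genes had 4 of 19 higher and 2 lower, and 2, 0 and 3 were called higher without the 3, 6 or 9 h pair. HERPUD1, of ER-associated degradation, read 10.90, 10.64 and 10.81 with siCtrl and 10.28, 10.15 and 10.36 with siNupr1, and fell by 0.52 ± 0.08 (limma adjusted p = 6.96e-05). The chaperone-type genes CRELD2, SDF2L1 and CALR rose by 0.40, 0.40 and 0.35.

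Of 28 autophagy genes, 3 rose and 1 fell, with a median of -0.06, a share of 14.3% beside 11.8% of all tested genes. Leaving out the 3, 6 or 9 h pair gave 1, 1 and 3 called higher. ATG2A, which transfers lipid to the forming autophagosome, rose by 0.64 ± 0.10 (limma adjusted p = 0.000170), GABARAP, an ATG8-family protein, by 0.34, and BECN1, of the class III PI3-kinase complex, by 0.33. OPTN, a receptor of selective autophagy, fell by 0.33. GABARAP differed by 0.65 at 3 h and by -0.03 at 9 h. Of 20 lysosome genes, 3 rose and 0 fell (15% beside 11.8%), with a median of 0.13, and 1, 0 and 7 were called higher without the 3, 6 or 9 h pair. CTSB, the protease cathepsin B, read 9.95, 10.02 and 9.79 with siCtrl and 10.43, 10.47 and 10.22 with siNupr1, a rise of 0.45. Cathepsin L (CTSL) and the V-ATPase subunit ATP6V0D1 rose by 0.36 and 0.30.

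Of 25 tested G2/M and mitosis genes 9 fell and 0 rose, beside 6.23% and 5.58% of all tested genes. In 23 of them the mean difference was negative, and the median was -0.26. KIF20A, a kinesin of cytokinesis, read 8.89, 8.62 and 8.83 with siCtrl and 8.17, 8.28 and 8.12 with siNupr1, and fell by 0.59 ± 0.11 (limma adjusted p = 0.000504). CDK1, the mitotic kinase, fell by 0.48, DLGAP5, a spindle protein, by 0.44, and MKI67, the antigen Ki-67, by 0.40. CDK1 read 6.17 to 6.53 with siNupr1, near the level that a gene without a transcript can read, so no fold of its RNA follows. AURKA, a mitotic kinase and a gene reported downstream of NUPR1, fell by 0.36, from -0.16 at 6 h to -0.67 at 9 h. The median of the list was -0.39 at 3 h, -0.08 at 6 h, -0.37 at 9 h and -0.34 in the fed pair. Without the 3, 6 or 9 h pair, 3, 4 and 7 genes were called lower. On whole-population arrays, fewer cells in mitosis and less RNA of these genes per cell cannot be told apart.

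Of 28 DNA replication and G1/S genes 2 were called lower (7.14% beside 6.23% of all tested genes) and 0 without the 3 h pair. They were CDC45, of the replicative helicase, and POLA1, the catalytic subunit of DNA polymerase alpha, which fell by 0.41 and 0.39. Of 11 CDK inhibitors and G1 cyclins, SKP2, the F-box protein that targets p27, fell by 0.49 and the others did not pass, and 0, 1 and 3 were called lower without the 3, 6 or 9 h pair. Of 15 replication-dependent histone genes, the linker histones H1-3, H1-4 and H1-5 fell by 0.50, 0.40 and 0.36. None of the 15 was called higher.

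Survival genes were named in the series' design as the point of interest. Of 9 anti-apoptotic regulators tested, 3 fell and 0 rose: BIRC2 and CFLAR, given above, and MCL1. The median of the 9 was -0.18, with 5 of them below 0, and 2, 2 and 3 were called lower without the 3, 6 or 9 h pair. All 3 lost their call without the time as a block, and MCL1 also lost it without the 3 h pair. MCL1, a BCL2-family protein that holds back BAX and BAK1, fell by 0.39 ± 0.09 (limma adjusted p = 0.00372), by 0.70 at 3 h, 0.17 at 6 h and 0.29 at 9 h. Of 20 pro-apoptotic regulators 3 fell and 1 rose, with a median of 0.04, and 1, 0 and 3 were called lower without the 3, 6 or 9 h pair. APAF1, the scaffold of the apoptosome, CASP2 and PMAIP1, the BH3-only protein NOXA, fell by 0.42, 0.39 and 0.38, and CASP8, the initiator caspase of death receptors, rose by 0.33. Of 19 p53 targets 3 fell and 0 rose. These were the stress kinase PLK2, GADD45A and SESN2, with falls of 0.47, 0.47 and 0.35.

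Glycolysis and glucose uptake had 7 of 19 higher and 0 lower, beside 5.58% and 6.23% of all tested genes, with a median of 0.11. The largest were PFKL and PFKM, phosphofructokinase subunits, with 0.39 and 0.36, the aldolase ALDOC with 0.35, and the hexokinase HK1 with 0.35. This count was 1, 0 and 7 without the 3, 6 or 9 h pair. Respiratory chain genes had 3 of 19 higher, 0 lower and none below 0, with a median of 0.17. CYC1 and UQCRC1, of complex III, rose by 0.39 and 0.31, and NDUFV1, of complex I, by 0.29. UQCRC1 lost its call in 8 of 16 other settings, and its 9 h pair differed by -0.01. Without the 3, 6 or 9 h pair 1, 0 and 7 respiratory chain genes were called higher.

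Of the cholesterol and fatty acid synthesis genes 2 of 18 rose, namely DHCR7 (0.37) and MVK (0.32), and 1 fell, with 1, 0 and 7 called higher without the 3, 6 or 9 h pair. The one that fell was SCD, the stearoyl-CoA desaturase, with -0.38 ± 0.07 (limma adjusted p = 0.000547). NRF2 targets had 4 of 18 higher, with malic enzyme ME1 at 0.45, the export pump ABCC2 at 0.37 and transketolase TKT at 0.35, and 1 lower, the glutathione synthesis subunit GCLM at -0.29, and 2, 1 and 4 were called higher without the 3, 6 or 9 h pair. Hypoxia targets had NDRG1 at 0.32 and VEGFA, the vascular growth factor, at -0.43 among 12 tested, whose median was -0.08. Of 14 heat shock genes, HSPB1 (HSP27) rose by 0.60 ± 0.08 (limma adjusted p = 8.05e-06) and the co-chaperone BAG3 by 0.33. HSPB1 fell over the times with either siRNA, from 10.71 to 10.00 with siCtrl and from 11.27 to 10.75 with siNupr1, and the silenced arrays stayed above all controls. MT1M, a metallothionein, rose by 0.39 among 9 genes of the zinc response.

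Genes of adhesion and matrix moved both ways. Of 14 extracellular matrix and integrin genes 4 rose and 2 fell. ITGA6, the laminin-binding integrin alpha-6, read 6.94, 7.05 and 7.21 with siCtrl and 7.57, 7.66 and 8.09 with siNupr1. It rose by 0.70 ± 0.11 (limma adjusted p = 7.58e-05), whereas the fed pair read 7.62 and 7.68. ITGA5, a fibronectin receptor subunit, rose by 0.48, and ITGAV fell by 0.50. Of 9 genes of epithelial-mesenchymal transition, CLDN1 fell and TGFBI, a secreted matrix protein induced by TGF-beta, rose by 0.62 ± 0.11 (limma adjusted p = 0.000336).

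Machinery of small RNA silencing was tested because every array carried an siRNA. Of 13 genes 5 fell and 0 rose, beside 6.23% and 5.58% of all tested genes, with a median of -0.22, and 4, 3 and 5 were called lower without the 3, 6 or 9 h pair. AGO2, the Argonaute that cleaves siRNA targets, read 9.32, 9.78 and 9.93 with siCtrl and 8.92, 9.26 and 9.28 with siNupr1. No silenced array reached a control, and it fell by 0.52 ± 0.09 (limma adjusted p = 0.000504). DICER1, which makes small RNAs from their precursors, fell by 0.55, TNRC6C, an Argonaute partner, by 0.58, and AGO4 by 0.45. In the fed pair DICER1 differed by -1.01 and AGO4 by 0.12. Interferon-stimulated and RNA-sensing genes had 3 of 17 higher and 0 lower: MX2 (0.56), IFI35 (0.53) and IFIT1 (0.45), all known to be induced by interferon.

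Ribosome biogenesis had 4 of 21 higher and 1 lower, led by NOLC1, a nucleolar phosphoprotein, with 0.52, and BOP1, POLR1B and MYBBP1A with 0.35, 0.34 and 0.32. Leaving out the 3, 6 or 9 h pair gave 1, 1 and 6 called higher. Of 15 ribosomal protein genes RPL7A alone was called and rose by 0.38, and 1, 0 and 5 were called higher without the 3, 6 or 9 h pair. FOXO targets had 4 of 16 lower, and 2, 2 and 4 without the 3, 6 or 9 h pair: KLF6 and GADD45A, given above, the repressor BCL6 with -0.33 and CCNG2, cyclin G2, with -0.32. ID genes and BMP-SMAD targets had 0 of 7 called by limma, and the smallest p values were those of ID3 (0.16; adjusted p = 0.399) and HES1 (-0.10; adjusted p = 0.626). Of 8 partners and cofactors of NUPR1, KPNA2, an importin, fell by 0.20 ± 0.06 (limma adjusted p = 0.0368), a call lost in 7 of 16 other settings. Of 9 tested genes among NUPR1 and those reported downstream of it, NUPR1, RELB and AURKA fell and 0 rose. Without the 9 h pair, this list had 2 lower, as had the NF-kB subunits. Heat shock genes then had 3 higher and 2 lower, and interferon-stimulated and RNA-sensing genes 4 higher and 1 lower. Genes of epithelial-mesenchymal transition had 3 higher and 1 lower, and p53 targets 1 higher and 2 lower. DNA replication and G1/S genes and hypoxia targets each had 2 higher and 1 lower.

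**Figure D4:**
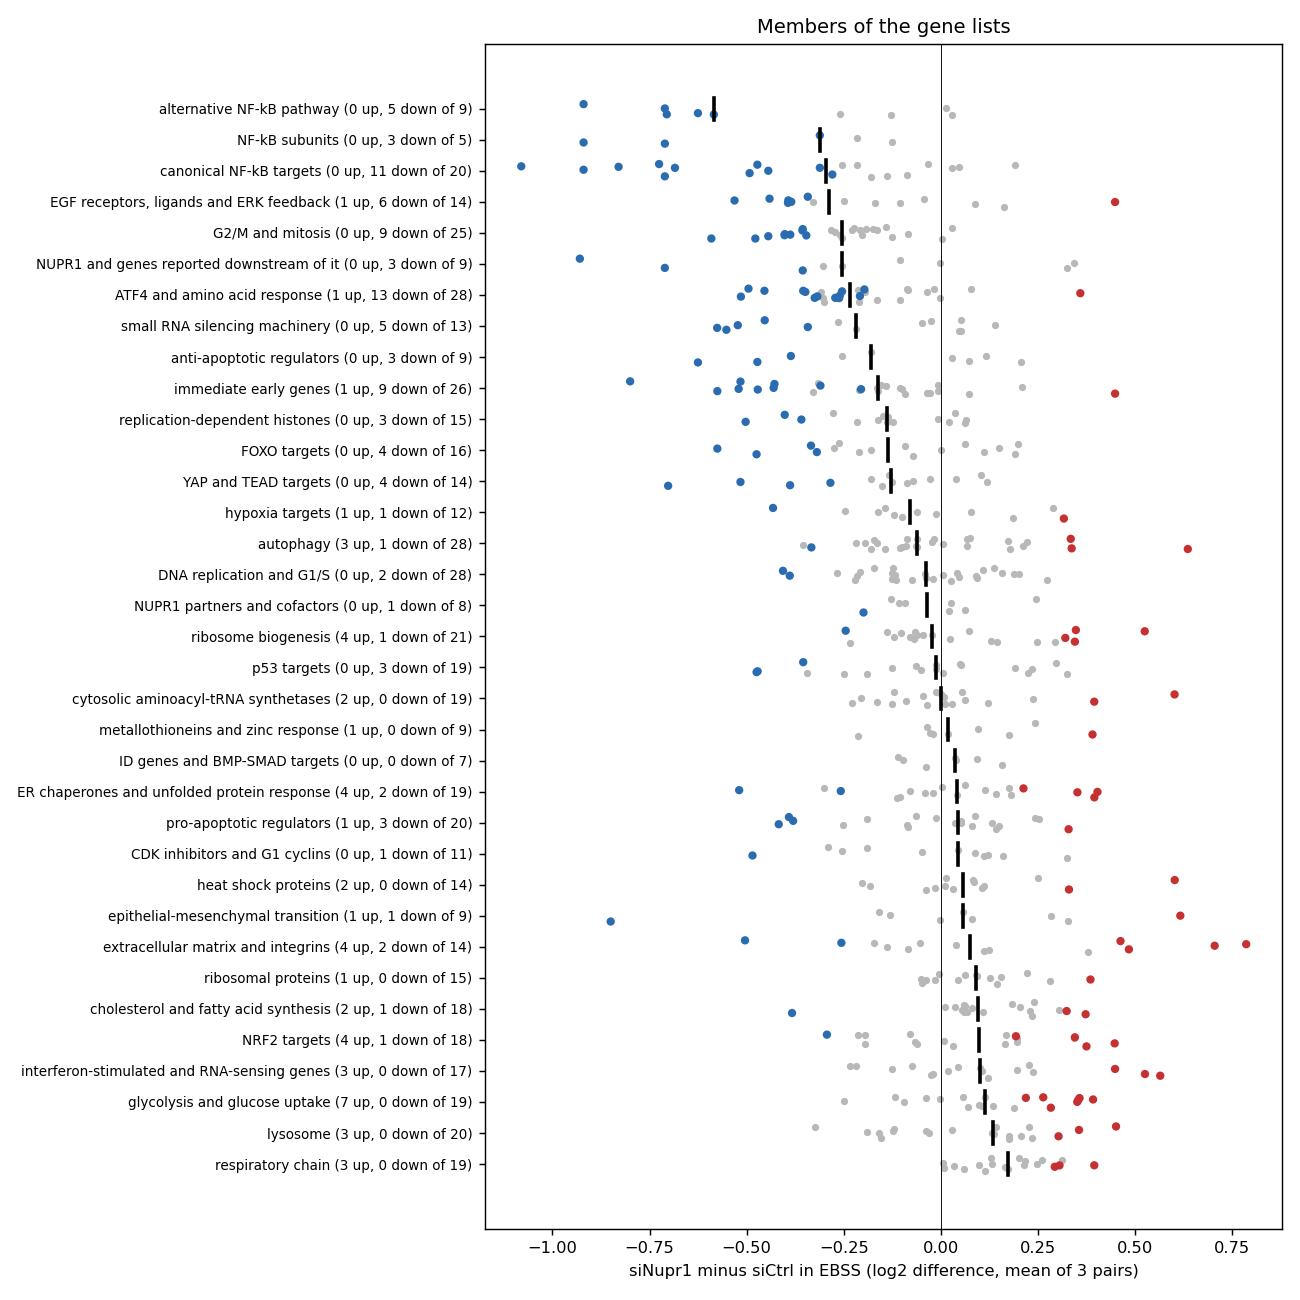
Differences siNupr1 minus siCtrl in EBSS (log2, horizontal axis, mean of 3 pairs) of the tested members of 35 gene lists, 1 row a list, with red and blue points for members called higher and lower, grey for those not called and a black bar for the list's median. The lists run from the alternative NF-kB pathway (median -0.58, 5 of 9 lower) at the top to the respiratory chain (median 0.17, 3 of 19 higher) at the bottom.

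Small non-coding RNAs were counted by type. Of 86 small nucleolar RNAs (snoRNAs, which guide modification of ribosomal RNA) 38 were called higher and 0 lower, with a median of 0.31. Their median was 0.52 at 3 h, 0.41 at 6 h, 0.06 at 9 h and 0.22 in the fed pair. Without the 3, 6 or 9 h pair, 20, 19 and 55 were called higher. Of 15 small nuclear RNAs 7 were called higher and 0 lower, with a median of 0.38, and 11 were called higher without the 9 h pair. Of 36 microRNA genes limma called 0, and of 180 long non-coding RNAs 2 higher and 8 lower. Protein-coding genes gave 553 higher and 676 lower calls among 10499. Many snoRNAs lie in introns of other genes, and signal of the spliced-out host intron cannot be told from that of the snoRNA on these arrays.

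The length of genes moved with the difference. The median genomic span was 21.8 kb for genes called higher and 43.3 kb for those called lower, against 24.7 kb over all tested genes. Across 11019 genes, Spearman's rho between span and mean difference was -0.17, and it was -0.16, -0.04 and -0.18 at 3, 6 and 9 h and -0.16 in the fed pair. After the trend with span was removed from each array 1357 genes were called, of which 1175 were among the 1302.

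The fed pair, whose arrays did not enter the fit, gave the same side for most called genes. Of the 615 genes called higher in EBSS, 592 (96.3%) were higher at 0 h, against 57.9% of all tested genes, and their median there was 0.45. Of the 687 called lower, 614 (89.4%) were lower at 0 h, against 42% of all tested, with a median of -0.35. Among the called genes with 1 sign in the 3 starved pairs, 94 had the opposite sign at 0 h. CXCL8 was an example of a smaller value in the fed pair (-0.57 against -1.08), TNFRSF9 of a like one (-1.07 against -1.20) and L1CAM of a larger one (1.24 against 0.85). There is 1 fed pair, so whether a difference depends on starvation was not tested.

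The NF-kB set of the series gives the differences of siRelB and siRelA from a siCtrl array of their own. They share that control with each other and not with siNupr1. In EBSS at 9 h, RELB differed by -1.68 with siRelB and RELA by -2.63 with siRelA, single-pair values without a test, and NUPR1 differed by -0.54 and -0.34. Of the 615 genes higher with siNupr1, 66.7% were higher with siRelB in EBSS and 68.3% with siRelA, against 50.2% and 47.9% of all tested genes. Of the 687 lower genes, 73.9% were lower with siRelB and 79.8% with siRelA, against 49.8% and 52.1%. The medians of the lower genes were -0.22 and -0.29, and those of the higher genes 0.14 and 0.15. In mock, siRelB shared the sign of 79.2% of the higher and 72.8% of the lower genes, against 51.5% and 48.5% of all tested genes, and siRelA that of 67.2% and 64.2%, against 54.7% and 45.3%.

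**Figure D5:**
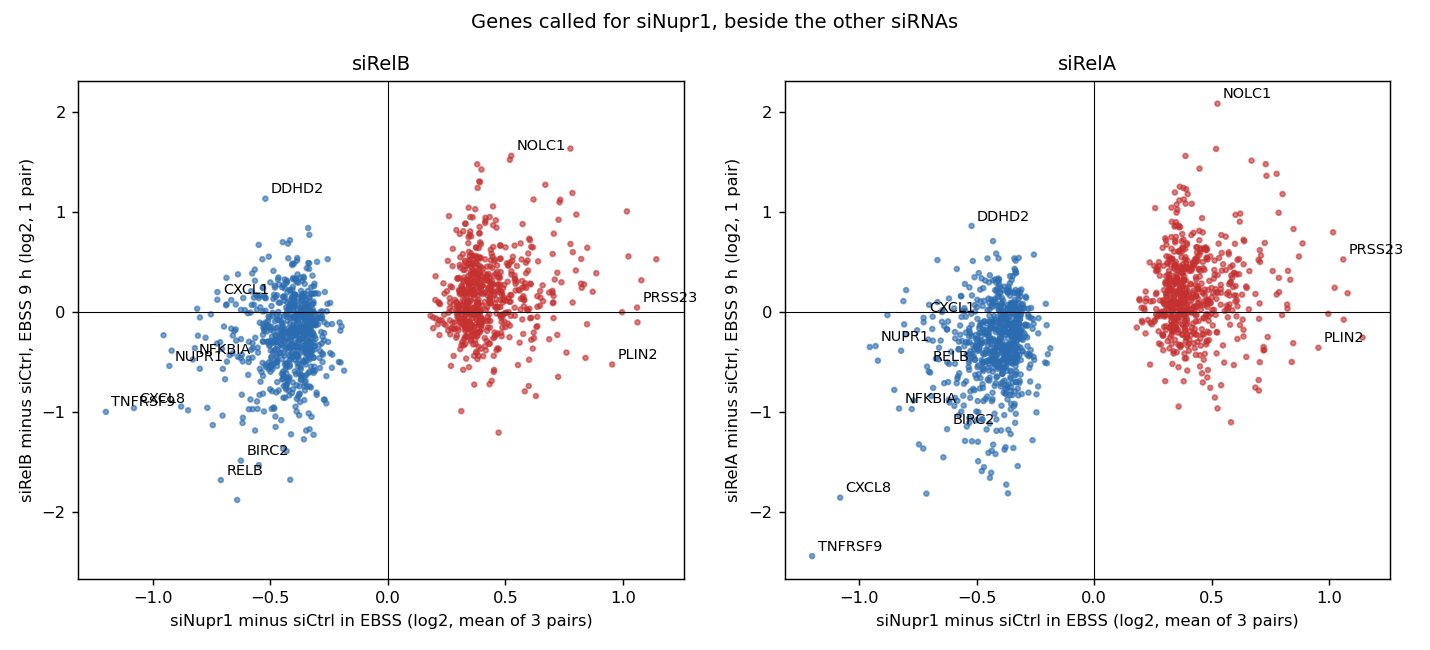
Difference with siRelB (left) or siRelA (right) against siCtrl in EBSS at 9 h (log2, vertical axes, 1 pair of arrays each) against the siNupr1 difference in EBSS (log2, horizontal axes, mean of 3 pairs) for the 1302 called genes, in red where higher and blue where lower with siNupr1. PLIN2 rises with siNupr1 and lies below 0 with both other siRNAs, and DDHD2 falls with siNupr1 and lies above 0 with both.

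The siNupr1 difference in EBSS was then tested against the siRelB and siRelA differences, each taken over its EBSS and mock pairs, in a joint fit of the 14 arrays. It differed from siRelB for 918 genes (8.33%) and from siRelA for 1393 (12.6%) at an adjusted p under 0.05. Since the siRNAs were run in separate sets, the set and the siRNA cannot be told apart in these contrasts.

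Of 20 canonical NF-kB targets 1 was called against siRelB and 3 against siRelA, and of 9 genes of the alternative branch 1 and 3, beside 8.33% and 12.6% of all tested genes. CXCL1 was lower with siNupr1 than with siRelB by 0.90 on the log2 scale (contrast -0.90; limma adjusted p = 0.00459), and its siRelB pair in EBSS differed by 0.12. Its contrast against siRelA passed too (-1.07; limma adjusted p = 0.000816), where the siRelA pairs differed by -0.06 in EBSS and 0.76 in mock. BIRC2 read lower with siRelB than with siNupr1, with a contrast of 0.77 (limma adjusted p = 0.00497). CXCL8 was lower with every siRNA in EBSS, by -1.08 with siNupr1, -0.96 with siRelB and -1.86 with siRelA. In mock it differed by -0.98 with siRelB and -0.78 with siRelA. Over EBSS and mock its contrasts were -0.11 against siRelB and 0.24 against siRelA, and neither passed (limma adjusted p = 0.863 and 0.616). The gap between the EBSS values alone was not tested. RELB differed by -0.55 with siRelA in EBSS. With siRelB it differed by -1.68 in EBSS and -0.95 in mock, and its contrast with siRelB over both was 0.61 ± 0.21 (limma adjusted p = 0.0805). TNFRSF9 differed by -1.001 with siRelB and -2.44 with siRelA in EBSS, and its contrast passed only against siRelA (0.92; limma adjusted p = 0.00234). UCA1 differed by -0.95 with siRelB and by -0.03 with siRelA, with a contrast against siRelA of -0.95 (limma adjusted p = 5.16e-05).

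Several of the largest rises differed from the values of the other siRNAs. PLIN2 differed by -0.53 with siRelB and -0.36 with siRelA in EBSS, and its contrasts were 1.31 and 1.11 (limma adjusted p = 3.42e-05 and 9.80e-05). HKDC1 behaved likewise, with -0.46 and -0.50 and contrasts of 1.14 and 1.18 (limma adjusted p = 0.000348 and 0.000148). PRSS23 differed from siRelB (contrast 1.04; limma adjusted p = 0.000330) and just missed against siRelA (0.49; adjusted p = 0.0502). ITGA6 differed from both, by 0.89 and 1.23. ANXA6, in turn, was higher with siRelB by 0.97 and with siRelA by 1.18, and neither contrast passed (-0.04 and -0.22; limma adjusted p = 0.919 and 0.354).

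The smallest p values of the contrasts belonged mostly to genes far from 0 in the pairs of the other siRNAs. Against siRelB they were RAB21, RAP1B, DDHD2, YAE1 and IDH3A. The small GTPase genes RAB21 and RAP1B differed by -2.28 and -2.00 with siRelB in EBSS and by -0.001 and -0.14 with siNupr1, and YAE1, of iron-sulphur protein assembly, by -2.00 and -0.07. IDH3A, an isocitrate dehydrogenase subunit of the citric acid cycle, differed by -0.99 with siRelB and rose by 0.31 with siNupr1 (limma adjusted p = 0.0443), a call lost in 8 of 16 other settings. DDHD2, a phospholipase, read 8.42, 8.35 and 8.50 with siCtrl and 7.76, 7.93 and 8.01 with siNupr1, a fall of 0.52 (limma adjusted p = 0.00138; 0.0541 without the time as a block), and was higher with siRelB by 1.13 in EBSS.

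Against siRelA the smallest p values were those of RELA, NOLC1, LSM14A, SCARNA17 and COPS2. For RELA the contrast was 2.37 (limma adjusted p = 1.59e-09), since siRelA targets it. NOLC1 was higher with each of these siRNAs, by 0.52 with siNupr1, 1.56 with siRelB and 2.08 with siRelA in EBSS. LSM14A, a processing body protein, SCARNA17, a guide RNA of Cajal bodies, and COPS2, a subunit of the COP9 signalosome, differed in the siRelA pair by -1.52, -1.14 and -1.54. With siNupr1 they differed by -0.08, 0.20 and 0.02, and none passed (limma adjusted p = 0.659, 0.0872 and 0.939).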

How the data were processed

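RNA of MiaPaCa2 cells was hybridized to 14 Affymetrix whole-transcript arrays. The deposited values are log2 levels that the authors made with RMA (background correction, quantile normalization and probe summary), per the submitters' processing notes, which also name limma; no version is given for either, nor whether all arrays were normalized together. No samples were left out, and all 28869 transcript clusters had values.

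Clusters with 1 gene symbol in the platform annotation (19310; 1752 had several and 7807 were not listed) were matched to current symbols, 19279 of them by Entrez identifier. The cluster with the highest mean over 14 arrays stood for each of 18377 genes. The 40% of genes with the lowest mean (log2 level under 5.80) were left out, which kept 11026.

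R 4.3.3 with limma 3.58.1 and data.table (version 1.17.8) were used. The main model had the time as a block and siNupr1 as a term (lmFit, eBayes with an intensity trend), with 2 residual degrees of freedom and 27.0 after moderation. Calls were made at 0.05 after Benjamini-Hochberg adjustment of p over the 11026 genes. SE is limma's moderated standard error. The joint fit of 14 arrays had 4 residual degrees of freedom and 24.1 after moderation. The pairing comes from the hours in the labels. Deviations from the group means correlated across genes by 0.44, 0.34 and 0.36 within the 3, 6 and 9 h pairs and by at most 0.00 between arrays of different times. Taking each group's own mean off lowers the values between times, and a time course common to both siRNAs raises those within times. The values therefore cannot tell whether the arrays of a pair came from paired cultures. The model was also run on simulated data, made with independent normal noise and the model's own pairs. Such data meet its assumptions by construction, so that run cannot show whether they hold for these arrays.

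The genes named are RELB, RELA, NUPR1 and IER3, the 15 largest called rises and falls with 1 sign in 3 pairs, up to 4 called members of each list with the largest difference (the 2 with the smallest p where none was called), all NF-kB subunits and the 5 smallest p of each contrast. Small RNAs were only counted. Comparisons, the 35 gene lists and members were chosen with earlier results of these data known, and lists were described by counts and medians, with no test. Promoter coordinates and sequences are those of RefSeq (GRCh38.p14). The number of arrays limits the precision.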

Additional observations from a re-analysis of the deposited data

Results flagged for a closer look

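For 8 named genes the fed pair lay on the other side of 0 from all 3 starved pairs. With 1 fed pair this difference was not tested, and 94 (7.34%) of the called genes with 1 sign in the starved pairs showed it. Genes lower in starvation and higher in the fed pair were CCN1 (0.3967 in the fed pair against a starved mean of -0.52), PPP1R15A (0.2012 against -0.45), AGO4 (0.1171 against -0.45) and HBEGF (0.0899 against -0.53). AURKA (0.0452 against -0.36), NFKB1 (0.0103 against -0.31) and FOSL2 (0.0015 against -0.52) were close to 0 in the fed pair. Over all tested genes the median of the fed pair was 0.0565, and these genes lay below it. IFIT1 was higher in starvation (0.45) and lower in the fed pair (-0.2502).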

How the results depend on the processing

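The time is the replicate block of the main model. Without this pairing the count of called genes fell from 1302 to 134 (80 higher, 54 lower), and 84 of the 122 named genes with a call lost it. With the fed pair added to the model the count was 1959, of which 1189 were among the 1302, and with array weights, which favoured the 6 h pair, it was 3155. Leaving out 1 pair gave 373 (without the 6 h pair) to 1963 genes (without the 9 h pair); leaving out 1 array of a pair leaves out the pair in this model. The other settings gave 943 (no intensity trend) to 1480 genes (robust moderation), within 1.5 times the main count, among them 988 with no filter, 1377 after quantile normalization, 1334 after median centring and 1206 over all clusters, a setting added after seeing the data. The share of higher genes moved by under 10 percentage points with either scaling. The contrasts gave 531 to 846 genes against siRelB and 894 to 1243 against siRelA when 1 pair was left out; single 9 h pairs give no count. Signs turned only among genes that were not called. RELA ranged from -0.2221 to 0.0023 (without the 9 h pair). RAB21 was 0.0119 after quantile normalization, 0.016 after centring, 0.0155 with array weights, 0.0294 with the span trend removed and -0.0261 to 0.047 with 1 pair left out. YAE1 was 5e-04 with a gene's clusters averaged. COPS2 was -0.1319 with the fed pair, -0.0184 with array weights and -0.0823 (without the 9 h pair) to 0.1038 with 1 pair left out. The causes of these changes were not tested.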
